A study of Mus musculus with 6 samples.

Results

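The 9 genes of angiopoietin, Tie and apelin signalling, out of 32285 counted, are described in single cells of mouse back skin that were sorted for the lineage label tdTomato and profiled with droplet scRNA-seq (3′ tags). They were taken by symbol alone: Tek, Tie1, Angpt1, Angpt2, Angpt4, Ptprb, Apln, Aplnr and Esm1. WT mice carried tdTomato;Cdh5-CreERT2;Krt14-H2BGFP on a C57BL/6;CD1 background and were collected at postnatal day (PD) 20 in telogen, the resting stage of the hair follicle, or at PD 32 in anagen, its growth stage. Alk1 KO mice carried Alk1 flox/flox;tdTomato;Cdh5-CreERT2 on C57BL/6 and were collected in telogen at PD 25. All mice of the 3 groups received tamoxifen (200 μg/g) at PD 17, which turns on a Cre driven by Cdh5, the gene of VE-cadherin. The sorted cells also held immune-like and fibroblast-like cells. There were 2 mice and 2 libraries per group. The title and description of the KO samples give the floxed Alk1 genotype, whereas their genotype field reads wild type, and the title was followed. Age, strain and the Krt14-H2BGFP allele go with the genotype in the KO comparison and cannot be told apart from it. The paper describes the KO cells as an earlier dataset of its authors, set against these telogen cells as control. The KO libraries held 10615358 and 11239445 UMIs, and those of WT telogen 32626434 and 43317677. Experiment and library depth thus also go with the genotype and cannot be told apart from it.

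Angiopoietins are secreted ligands of the receptor tyrosine kinase Tie2, the product of Tek. Angpt1, made by mural and mesenchymal cells, activates Tie2 and keeps vessels quiescent, Angpt2 is made by ECs and can act as an antagonist in blood vessels and as an agonist in lymphatic vessels, Tie1 is a co-receptor without a ligand of its own, and the phosphatase VE-PTP, encoded by Ptprb, removes phosphate from Tie2. Apelin (Apln) is a peptide made by sprouting ECs that signals through a G protein-coupled receptor (Aplnr) on veins and capillaries, and endocan (Esm1) is a proteoglycan known as a mark of the tip cells that lead a sprout.

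The genes lie on 7 chromosomes of mm10 (GENCODE annotation). Tek is at chr4:94739289-94874976 and Tie1 at chr4:118471191-118490061, and Ptprb is at chr10:116275523-116389535. The ligands are at chr15:42424723-42676977 (Angpt1), chr8:18690263-18741562 (Angpt2) and chr2:151911210-151945337 (Angpt4). Apln is at chrX:48025146-48034853, Aplnr at chr2:85136225-85139923 and Esm1 at chr13:113209659-113218098. Reads are 3′ tags, so they come from the last exons and 3′ ends and not from the promoters.

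Promoter sequences from RefSeq (GRCm38.p6) matched 5 of the 9 genes by symbol, and Angpt1, Angpt2, Ptprb and Aplnr had no entry. The 250 bases before the start are shown for Esm1 and Tek, which were lower in blood ECs of the KO, and for Apln, whose receptor was. Capitals mark the matches on either strand to 6 short motifs: GGCGCC (SMAD1/5 GC-rich site), CAGAC (SMAD binding element), GTAAACA (FOXO site), AGGAAG and CAGGAA (ETS sites that overlap in AGGAA) and ACGTG (hypoxia response element).
Esm1, chr13:113209409-113209658, + strand: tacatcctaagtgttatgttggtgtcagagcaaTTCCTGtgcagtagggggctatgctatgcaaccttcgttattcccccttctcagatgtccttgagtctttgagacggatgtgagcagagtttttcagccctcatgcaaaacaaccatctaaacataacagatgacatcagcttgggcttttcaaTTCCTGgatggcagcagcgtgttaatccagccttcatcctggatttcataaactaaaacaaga
Tek, chr4:94739039-94739288, + strand: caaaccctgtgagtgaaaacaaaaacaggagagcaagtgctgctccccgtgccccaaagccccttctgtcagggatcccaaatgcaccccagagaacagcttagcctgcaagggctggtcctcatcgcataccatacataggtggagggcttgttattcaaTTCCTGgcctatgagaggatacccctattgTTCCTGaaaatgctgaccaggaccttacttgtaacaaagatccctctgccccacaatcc
Apln, chrX:48034854-48035103, - strand: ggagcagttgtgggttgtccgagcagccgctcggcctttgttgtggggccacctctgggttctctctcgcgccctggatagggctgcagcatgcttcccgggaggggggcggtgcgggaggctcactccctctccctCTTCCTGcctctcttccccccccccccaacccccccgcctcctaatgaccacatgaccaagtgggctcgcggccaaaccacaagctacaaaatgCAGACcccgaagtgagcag
The motif CAGGAA, which reads TTCCTG on the opposite strand, was found 2 times before Esm1, 2 times before Tek and 1 time before Apln, where an AGGAAG match overlaps it, and CAGAC was found 1 time before Apln. Of 32851 windows of the same length, 25.7% held CAGGAA, 29.5% AGGAAG, 42.2% CAGAC, 9.59% GGCGCC, 3.17% GTAAACA and 16.6% ACGTG. The motifs were chosen with the expression values known, and a match is a description of the letters only.

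The 6 libraries held 10615358 to 43317677 UMIs, and 20941 of 27418 barcodes (76.4%) had 200 to 5000 genes and under 10% mitochondrial UMIs. Pairs of libraries shared 1 to 8 barcodes, at most 0.234% of the smaller library. Of the kept cells 12618 were blood or lymphatic ECs, 8607 in blood and 4011 in lymphatic clusters, and these fell into 6 populations named from markers (Artery, Vein, Cap-Kdr, Cap-Rgcc, Lymph-Col, Lymph-Cap) and 2 unnamed blood EC clusters led by Lrat and by Prnd. A further 221 cells were named from markers of proliferation and left out of the blood and lymphatic sums. WT telogen had 30 and 40 of them, anagen 96 and 55, and the KO 0 and 0. In every group 7 to 12 markers of a list of 9 to 12 were at least 2-fold higher in both libraries of the named population. Names of the KO cells rest on the correction between libraries, since without it 4 of 18 EC clusters held over 90% KO cells and 90.3% of all KO ECs. Acvrl1, the gene of ALK1, was at 210 and 182 CPM, its UMIs scaled to one common total per library, in blood ECs of telogen, 156 and 168 in anagen, and 163 and 153 in the KO. Tags outside the floxed segment do not report its loss, and where that segment lies is not given in the sources used here, so these values neither check nor contradict the labels.

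Values below are CPM of UMIs summed over the cells of a population in a library, and levels are compared between populations as a description, because the populations are clusters of these same cells. The 9 genes were left out of the genes used for clustering. A gene is called where its fold exceeds 1.3 and its adjusted p is below 0.05 in edgeR's quasi-likelihood test on these sums, with Benjamini-Hochberg adjustment over all genes of the fit. With 2 mice per group the p-values rest on the spread of few libraries.

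Tek and Tie1, the receptors, were found in every EC population, with different orders. Across the 4 WT libraries, which span both stages, Tek was highest in Vein at 146 ± 12.2 CPM (SD, n = 4), followed by Artery at 141 ± 14.3 and Cap-Kdr at 129 ± 20.4, whose library ranges overlap. It was lower in Lymph-Cap at 69.7 ± 23.3 and lowest among ECs in Lymph-Col at 33.1 ± 9.75. Tie1 was highest in Lymph-Col at 278 ± 24.3 CPM, followed by Cap-Kdr at 221 ± 7.53 and Lymph-Cap at 190 ± 16.9, and the library ranges of these 3 do not overlap. The remaining blood EC populations held Tie1 at 130 to 166 CPM with overlapping ranges. The share of a gene's UMIs that each EC type held depends on how many cells of it a library had. Blood ECs held 65.2% to 90.1% of the Tek UMIs in every library. For Tie1, blood and lymphatic ECs held 45.3% and 41.9% and 44.0% and 42.1% in the telogen libraries, 68.5% and 24.4% and 80.7% and 15.7% in the anagen ones, and 39.1% and 59.6% and 38.7% and 59.9% in the KO ones, where the order is turned.

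Ptprb, the Tie2 phosphatase, was highest in Artery at 1146 ± 213 CPM, and its lowest Artery library (937 CPM) lay above every Cap-Kdr library (at most 777). Cap-Kdr (697 ± 85.2) and Vein (632 ± 131) overlapped, and Lymph-Col (139 ± 34.6) and Lymph-Cap (137 ± 24.7) stood at a similar, lower level. Blood ECs held 75.1% to 93.8% of its UMIs in the 6 libraries.

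Angpt2, the ligand made by ECs, was mainly found in lymphatic ECs. It was at 258 ± 35.4 CPM in Lymph-Col, 131 ± 86.8 in the Prnd cluster, 98.3 ± 39.8 in Lymph-Cap and 61.3 ± 11.7 in pericyte-like cells, with overlap at each step, and all 4 pericyte-like sums lay above those of Vein (34.4 ± 8.35). Artery was the lowest EC population at 6.07 ± 2.51 CPM. Lymphatic ECs held 55.1% to 83.0% of its UMIs in the 6 libraries.

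Angpt1 was highest in pericyte-like cells. They held it at 35.5 ± 12.7 CPM, and their lowest library (23.8 CPM) lay above the highest fibroblast-like one (22.3 CPM). Within ECs it was found in Artery at 5.62 ± 2.65 CPM, with 0 to 3.58 CPM in single libraries of the other EC populations. Angpt4, a further ligand of Tie2, had 17 UMIs in 13 cells of all 20941, 64.7% of them in fibroblast-like cells and 0 in ECs.

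Aplnr and Apln were highest in different blood EC clusters, and the Prnd cluster held both. The receptor gene Aplnr was highest in Cap-Kdr at 238 ± 50.3 CPM and next in Vein at 158 ± 42.3, with overlap, then in the Lrat cluster (94.3 to 185), the Prnd cluster (89.7 ± 32.9) and Cap-Rgcc (73.2 ± 35.6). Artery held it at 2.91 ± 0.899 CPM and Lymph-Col at 1.10 ± 1.28. The peptide gene Apln was at 177 ± 141 CPM in the Prnd cluster, and its lowest library there (32.2 CPM) lay above every Vein library (7.64 to 11.7). The 222 cells of that cluster were grouped without the 9 genes, but Apln stood among its 10 leading genes beside Prnd, Kit and Cxcr4, so its level there is a description.

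Esm1 was highest in Cap-Kdr at 189 ± 120 CPM and in the Prnd cluster at 99.9 ± 69.6, with overlap, was at 23.6 ± 27.5 in Cap-Rgcc, and was near 0 in Vein at 0.172 ± 0.344. Cap-Kdr and Vein, the populations with most Aplnr, thus lay at the opposite ends of the blood EC populations for Esm1.

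**Figure D1:**
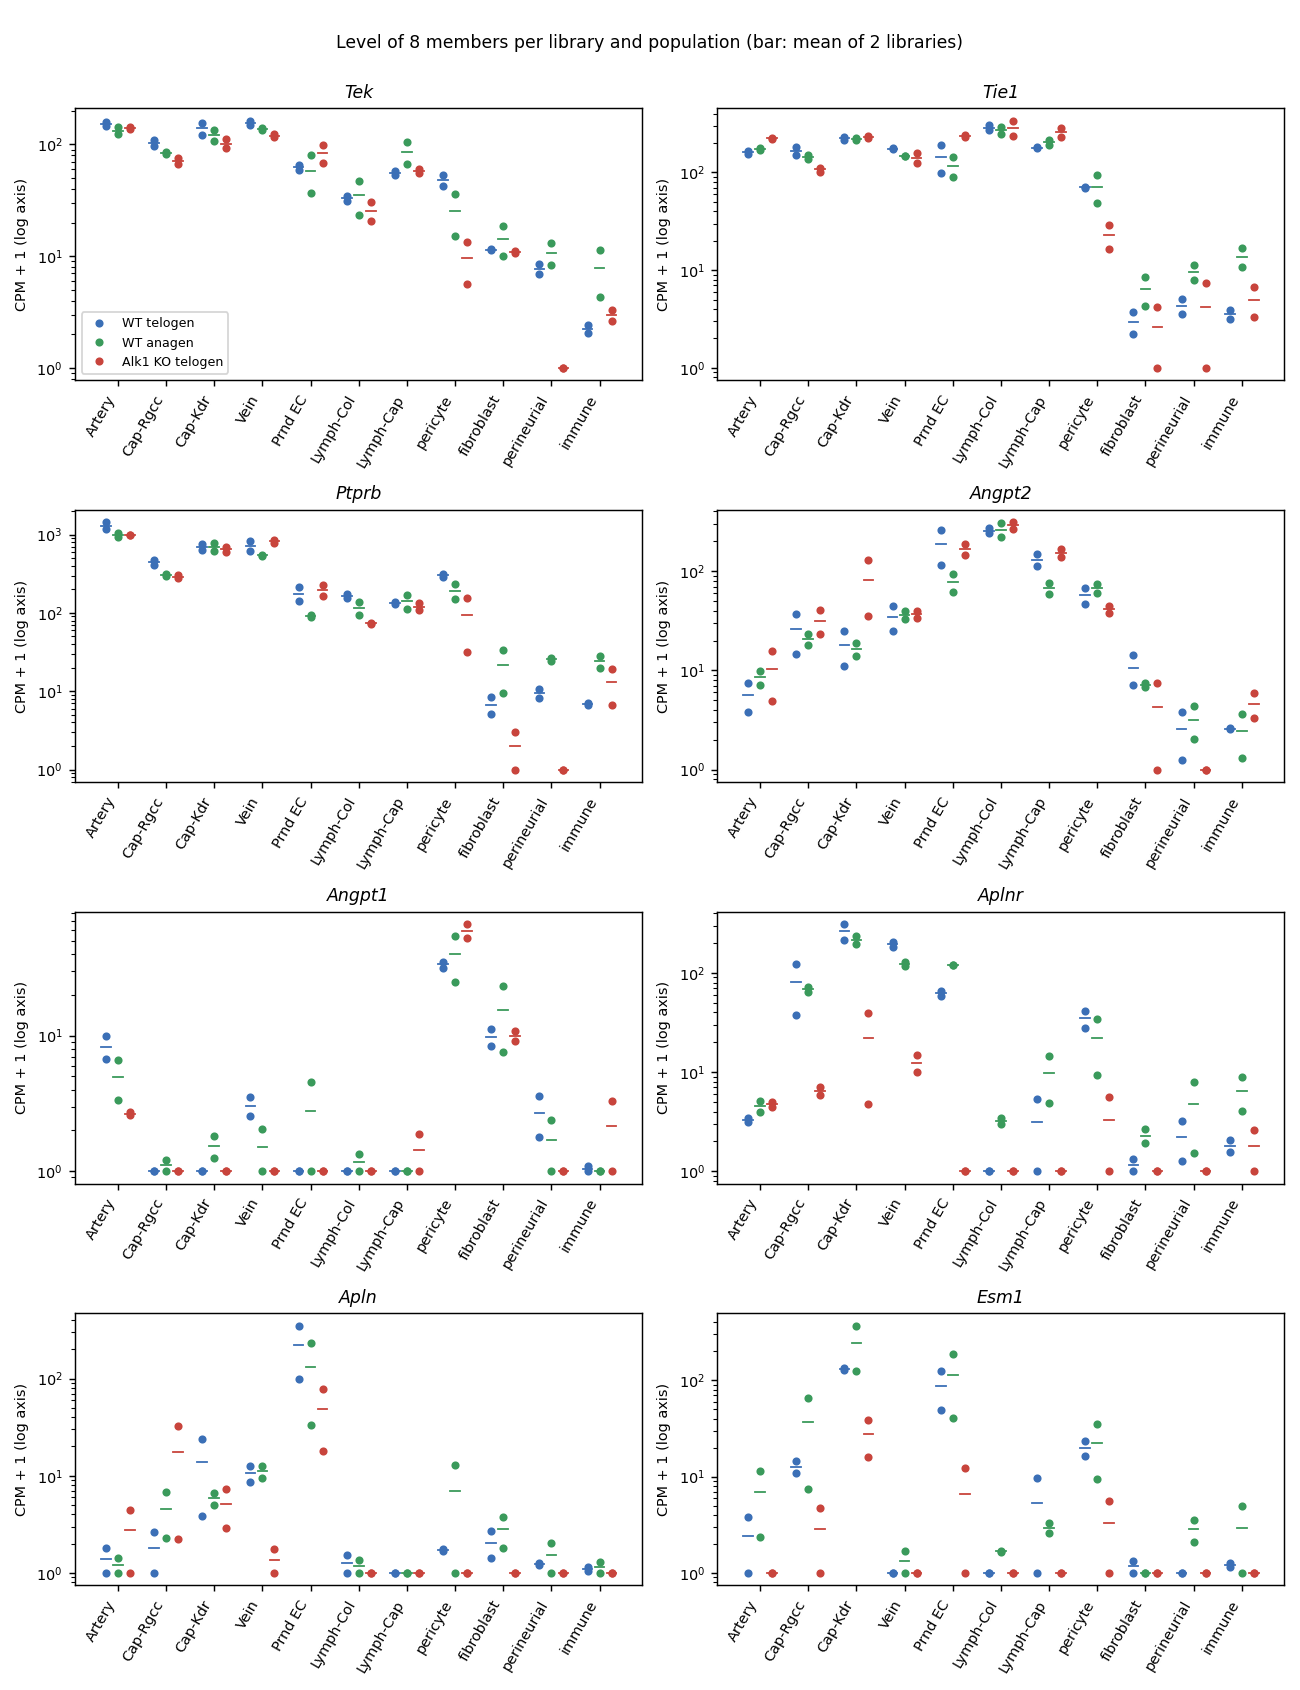
Level of 8 genes (CPM + 1, log axis) in each library, by population on the x axis, with points coloured by group and bars at the mean of 2 libraries. In WT libraries Angpt2 and Tie1 are on average highest in Lymph-Col, Ptprb in Artery, Angpt1 in pericyte-like cells and Apln in the Prnd cluster, and the KO points of Aplnr (at most 38.2 CPM) lie below the WT points in Cap-Kdr, Vein and Cap-Rgcc.

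The genes with the most similar pattern were ranked by Pearson's r of log2(CPM + 1) over 79 sums of a library and a population with at least 20 cells, from 15 populations; these sums share libraries and differ in depth, and no p is given. Nearest to Tek were Cyb561 (r = 0.932), Ptprm and Adcy4, and nearest to Tie1 were Egfl7 (r = 0.956), Rapgef5 and Nova2. Ptprb was most like Pecam1 (r = 0.949), Adgrf5 and Myct1, and Angpt2 most like Ptprk (r = 0.835), Aplp2 and Smad1. Angpt1 came nearest to Ano1 (r = 0.824), Slc6a17 and Cacna1g, and Apln to Adamts7 (r = 0.768), Vash1 and Ctnnbip1. For Aplnr they were Fam167b (r = 0.914), Gm32688 and Exoc3l2, and for Esm1 Sez6l2 (r = 0.855), Krt222 and Ces2e. Angpt4 had too few UMIs to rank.

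The first comparison asked what differs between anagen and telogen in WT skin. None of the 9 genes was called in blood ECs, lymphatic ECs or the 6 named EC populations. In blood ECs Ptprb was at 747 and 919 CPM in telogen and 566 and 606 in anagen, groups that do not overlap, as was so for 51.8% of all genes in this fit, with a log2 fold change of -0.37 ± 0.14 (SE) and an edgeR adjusted p of 0.292. Aplnr was at 103 and 140 CPM in telogen and 91.9 and 80.7 in anagen (log2 -0.36 ± 0.16, edgeR adjusted p 0.349), also without overlap. Tek was at 131 and 147 against 107 and 119 CPM (log2 -0.15 ± 0.13, edgeR adjusted p 0.595). In this fit 0% of 12780 genes were called, 1981 had an unadjusted p under 0.05, and DESeq2 called 208 genes and none of the 9. Of the 8 members tested, Ptprb alone had an unadjusted p under 0.05.

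Esm1 and Apln stood out for the gap between the anagen mice. Esm1 was at 24.7 and 29.3 CPM in telogen and at 110 and 11.8 in anagen, and Apln at 8.90 and 13.9 in telogen and 19.3 and 4.07 in anagen. For either gene anagen replicate 1 lay above and anagen replicate 2 below both telogen libraries. The fitted change of Esm1 was 1.31 ± 0.89 on the log2 scale (edgeR adjusted p 0.516) and that of Apln 0.17 ± 0.68 (edgeR adjusted p 0.927). Leaving out anagen replicate 1 gave an Esm1 change of -1.03 (edgeR adjusted p 0.0129) and an Apln change of -1.32 (edgeR adjusted p 0.0361), and leaving out anagen replicate 2 gave an Esm1 change of 2.15 (edgeR adjusted p 2.15e-05), so the direction rests on which anagen mouse is kept. In these fits 1 anagen library is left and is assumed to vary as the telogen libraries do, so their p-values carry no spread between anagen mice. Anagen replicate 1 also held 101 of the 139 anagen cells of the Prnd cluster. Cap-Kdr made up 686 of 2551 blood ECs in anagen replicate 1 and 399 of 3317 in anagen replicate 2. Within Cap-Kdr, Esm1 was at 129 and 135 CPM in telogen and 368 and 124 in anagen.

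In lymphatic ECs Tek was at 38.7 and 38.7 CPM in telogen and 52.0 and 52.1 in anagen (log2 0.55 ± 0.17, edgeR adjusted p 0.110). Here 1.77% of 10379 genes were called, none of the 4 members tested was, and Tek had an unadjusted p under 0.05. Angpt2 was at 221 and 217 against 175 and 213 CPM, Tie1 at 244 and 268 against 266 and 226, and Ptprb at 145 and 165 against 98.7 and 149. Across the named populations the shares of genes called were 0.137% for Cap-Kdr, 0.323% for Lymph-Cap, 0.393% for Cap-Rgcc, 0.661% for Artery, 0.754% for Vein and 1.43% for Lymph-Col. Among the members in these fits an unadjusted p under 0.05 was found for Aplnr in Vein (log2 -0.53 ± 0.15), Esm1 in Cap-Kdr (0.97 ± 0.41), Ptprb in Cap-Rgcc (-0.45 ± 0.16), and Tek (0.68 ± 0.25) and Angpt2 (-0.85 ± 0.22) in Lymph-Cap, and DESeq2 called none. Angpt2 in Lymph-Cap was at 112 and 147 CPM in telogen and 75.4 and 58.1 in anagen.

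Outside ECs 1 value was called. Ptprb rose in perineurial-like cells, named from markers of the nerve sheath, from 7.27 and 9.83 CPM in telogen to 25.9 and 23.5 in anagen (log2 1.57 ± 0.24, edgeR adjusted p 0.0247), where 1.1% of 11169 genes were called. EC markers moved with it. Pecam1 went from 11.2 and 18.3 to 51.3 and 51.1 CPM in the same sums, and all 10 EC markers together, none of them at 0, from 426 and 494 to 797 and 761. Their part in the result was not tested. The call was lost with stricter cell limits (adjusted p 0.0547) and with likely doublets removed (0.0577), and with sums thinned to the smallest library Ptprb did not pass the filter on low counts. No member was called in pericyte-like cells, where 0.046% of genes were, nor in fibroblast-like cells, where 0.109% were, and an unadjusted p under 0.05 was found there for Ptprb in both.

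The second comparison set the Alk1 KO against WT telogen, and shares its telogen libraries with the first. Of the members tested in blood ECs, Aplnr had the largest log2 change. In blood ECs it was at 103 and 140 CPM in WT telogen and 5.23 and 10.3 in the KO, with both KO libraries below every WT library. In this fit the groups did not overlap for 69.8% of all genes, and in Cap-Kdr also for 69.8%. It fell by 4.04 ± 0.26 on the log2 scale, 16.4-fold (edgeR adjusted p 2.58e-05). The fall was also called in the 3 named populations where Aplnr was tested, from 215 and 309 CPM to 3.8 and 38.2 in Cap-Kdr (log2 -3.89 ± 0.44, edgeR adjusted p 4.19e-05), from 182 and 206 to 9.01 and 13.7 in Vein (-4.14 ± 0.25, 2.69e-07) and from 36.5 and 122 to 4.94 and 6.03 in Cap-Rgcc (-3.79 ± 0.62, 0.0013). Neither KO library had a UMI of Aplnr in the Lrat cluster, where WT telogen stood at 185 and 111 CPM and 3 counts would be 10.5 and 8.81 CPM. All 16 alternatives run in blood ECs kept the call, with log2 values from -4.55 to -3.64.

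Esm1 fell in blood ECs from 24.7 and 29.3 CPM to 2.62 and 5.27 (log2 -2.84 ± 0.30, edgeR adjusted p 0.000197) and in Cap-Kdr from 129 and 135 to 15.2 and 38.2 (-2.53 ± 0.31, 8.00e-05), again without overlap. The call held in all 14 alternatives in Cap-Kdr and in 15 of 16 in blood ECs. The exception was the fit with all 6 libraries (adjusted p 0.0883), in which the spread between the anagen libraries enters the error. Tek fell in blood ECs from 131 and 147 to 109 and 112 CPM (log2 -0.38 ± 0.12, edgeR adjusted p 0.0387) and in Cap-Kdr from 122 and 155 to 110 and 91.2 (-0.65 ± 0.22, 0.0343). These calls were close to the limits and were lost in 7 of 16 and 7 of 14 alternatives, DESeq2 (adjusted p 0.128 and 0.239) and stricter cells (0.175 and 0.144) among them. In blood ECs they included the fits without WT telogen replicate 1 (0.0939), WT telogen replicate 2 (0.253) and KO replicate 2 (0.0582), and in Cap-Kdr those without WT telogen replicate 2 (0.233) and KO replicate 2 (0.0987).

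The other genes of blood ECs were not called. Ptprb was at 673 and 719 CPM in the KO against 747 and 919 (log2 -0.31 ± 0.14, edgeR adjusted p 0.122), Tie1 at 175 and 169 against 168 and 181 (-0.07 ± 0.12, 0.680), Apln at 3.57 and 7.91 against 8.90 and 13.9 (-1.05 ± 0.39, 0.0632), and Angpt2 at 29.7 and 45.4 against 14.2 and 33.1 (0.62 ± 0.33, 0.177). Apln and Angpt2 were both called without the filter on low counts and with the replicate number as a block. Angpt1 had 2 UMIs in each KO library and 10 and 14 in WT telogen. It was not tested in the main fit and was called without that filter. Thus 3 of 7 members tested were called, all lower, where 33.3% of 11272 genes were called and 17.9% were called lower, and with so few members nothing is read from the count. In these sums 12 immune markers together were at 94.5 and 138 CPM in WT telogen and 9.28 and 16.1 in the KO, with 1 and 3 of the 12 at 0, and 10 EC markers at 8539 and 8799 against 8519 and 8975, with none at 0. The 9 fibroblast markers together were at 73.0 and 123 CPM against 23.6 and 21.4, with 0 and 3 at 0. The part of these lists in the results was not tested.

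Angpt2 rose in Cap-Kdr, from 10.0 and 24.1 CPM to 34.2 and 127 (log2 1.99 ± 0.56, edgeR adjusted p 0.0151), with the KO libraries above the WT ones and far from each other. Leaving out KO replicate 2 ended the call (log2 0.79, adjusted p 0.256), and 13 of 14 alternatives kept it. The 5 erythroid markers together were at 7725 and 1266 CPM in these WT sums and at 66.5 and 11625 in the KO, none of them at 0. The 7 mast cell markers together were at 24.3 and 25.6 against 184 and 348, with 0 and 2 at 0. That list holds Kit, also a leading gene of the Prnd blood EC cluster. In Vein it was at 127 and 154 CPM in WT telogen and 163 and 145 in the KO. Cells named from mast cell markers numbered 15 and 2 in the KO libraries. The part of either list in the result was not tested. In Vein (33.0 and 38.9 against 24.0 and 43.3 CPM) and Cap-Rgcc (22.2 and 39.2 against 13.5 and 36.2) Angpt2 overlapped between the groups. In all, 4 of the 6 members tested in Cap-Kdr were called (Tek, Aplnr and Esm1 lower, Angpt2 higher), beside 34.9% of 7327 genes. In Vein it was 1 of 5 beside 21.9%, in Cap-Rgcc 1 of 5 beside 16%, and in Artery 1 of 3 beside 18.3%. Members not called but with an unadjusted p under 0.05 were Tek in Vein and Cap-Rgcc, Ptprb in Cap-Rgcc and Artery, and Tie1 in Cap-Rgcc. DESeq2 called none of these. Tie1 in Cap-Rgcc was lower, at 101 and 111 CPM in the KO against 137 to 181 over the 4 WT libraries of both stages. In Artery Tie1 rose from 153 and 166 to 226 and 219 CPM (log2 0.48 ± 0.15, edgeR adjusted p 0.0394), a call that was lost with DESeq2 (adjusted p 0.201), without the filter on low counts (0.0553), and without WT telogen replicate 1 (0.267), WT telogen replicate 2 (0.139) or KO replicate 1 (0.0993).

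**Figure D2:**
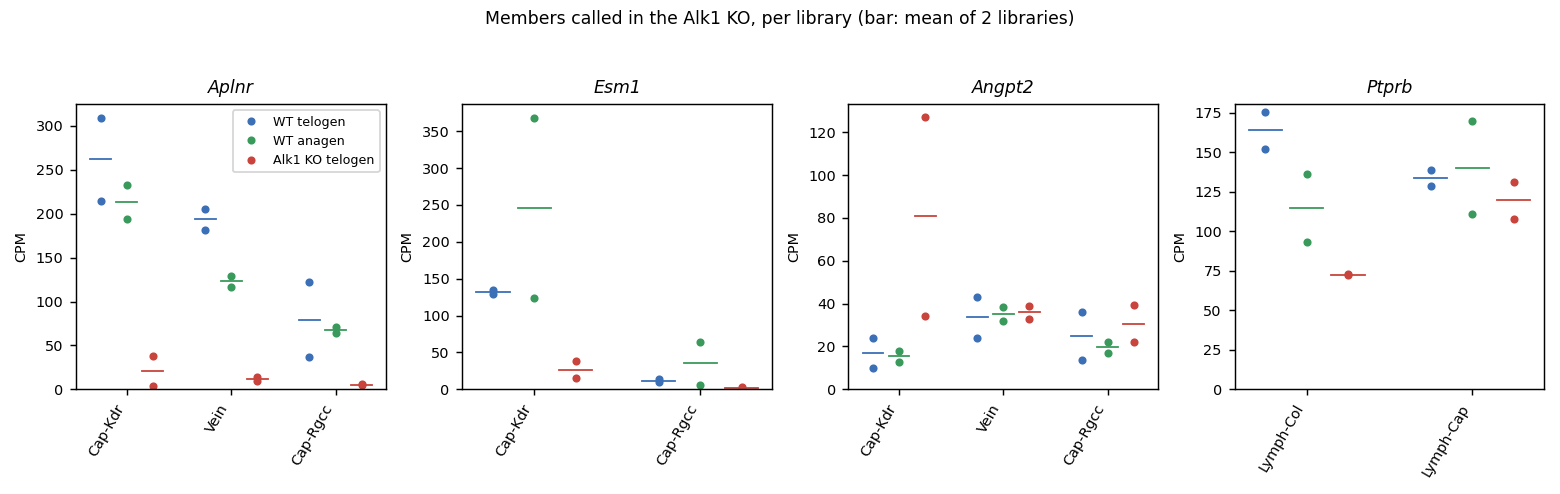
CPM per library (points) and mean of 2 libraries (bars) of Aplnr, Esm1, Angpt2 and Ptprb in the populations on the x axis, coloured by group, on linear axes from 0. KO points of Aplnr and of Esm1 in Cap-Kdr lie below all WT points, the 2 KO points of Angpt2 in Cap-Kdr are at 34.2 and 127, and those of Ptprb in Lymph-Col are at 73.0 and 72.1.

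In lymphatic ECs the phosphatase gene was the member called. Ptprb fell from 145 and 165 to 94.7 and 109 CPM (log2 -0.66 ± 0.13, edgeR adjusted p 0.00542), and leaving out WT telogen replicate 2 ended the call (adjusted p 0.0565). In Lymph-Col it fell from 152 and 175 to 73.0 and 72.1 CPM (log2 -1.24 ± 0.16, edgeR adjusted p 0.000385), where all 14 alternatives kept the call. In Lymph-Cap it was at 129 and 139 against 108 and 131 CPM (-0.21 ± 0.17, edgeR adjusted p 0.429). The difference between these populations was not tested. Beside the Lymph-Col result, 12 perineurial markers together were at 687 and 643 CPM in WT telogen and 325 and 405 in the KO, with 0 and 7 of them at 0, and the 12 immune markers at 73.3 and 136 against 10.7 and 11.4, with 1 and 6 at 0. The 9 fibroblast markers were at 52.7 and 76.1 CPM in these sums against 3.58 and 8.22, with 1 and 5 at 0, and the 5 erythroid markers at 5.16 and 7.51 against 12.2 and 1377, with 2 and 0 at 0. The part of these lists in the result was not tested. Tek was at 47.8 and 41.7 CPM in KO lymphatic ECs against 38.7 and 38.7, Tie1 at 306 and 230 against 244 and 268, and Angpt2 at 187 and 219 against 221 and 217, and none of them was called. In lymphatic ECs 1 of 4 members was called beside 24.7% of genes, 1 of 4 in Lymph-Col beside 17.9% and 0 of 4 in Lymph-Cap beside 16.7%, where Tie1 alone had an unadjusted p under 0.05 (log2 0.47 ± 0.17) and DESeq2 called none.

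The responses of lymphatic and blood ECs were set against each other in 1 fit with the library as a block, for the 4 members with at least 50 UMIs in both. The make-up of the lymphatic sums differed between the groups. Lymph-Col had 361 and 408 cells in WT telogen and 292 and 337 in the KO, and Lymph-Cap 182 and 164 against 402 and 508. The KO response of Angpt2 was lower in lymphatic than in blood ECs by a log2 difference of -0.83 ± 0.28 (edgeR adjusted p 0.0465), a call lost in 5 of 9 alternatives, beside 20.1% of 12208 genes called. The differences of Tek (0.51 ± 0.18, adjusted p 0.0542), Ptprb (-0.37 ± 0.15, 0.0897) and Tie1 (0.05 ± 0.16, 0.851) were not. Between stages none of the 4 was called by edgeR, beside 0.133% of 12036 genes, and Tek alone had an unadjusted p under 0.05 (0.72 ± 0.19, adjusted p 0.253). DESeq2 was not run for these fits.

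**Figure D3:**
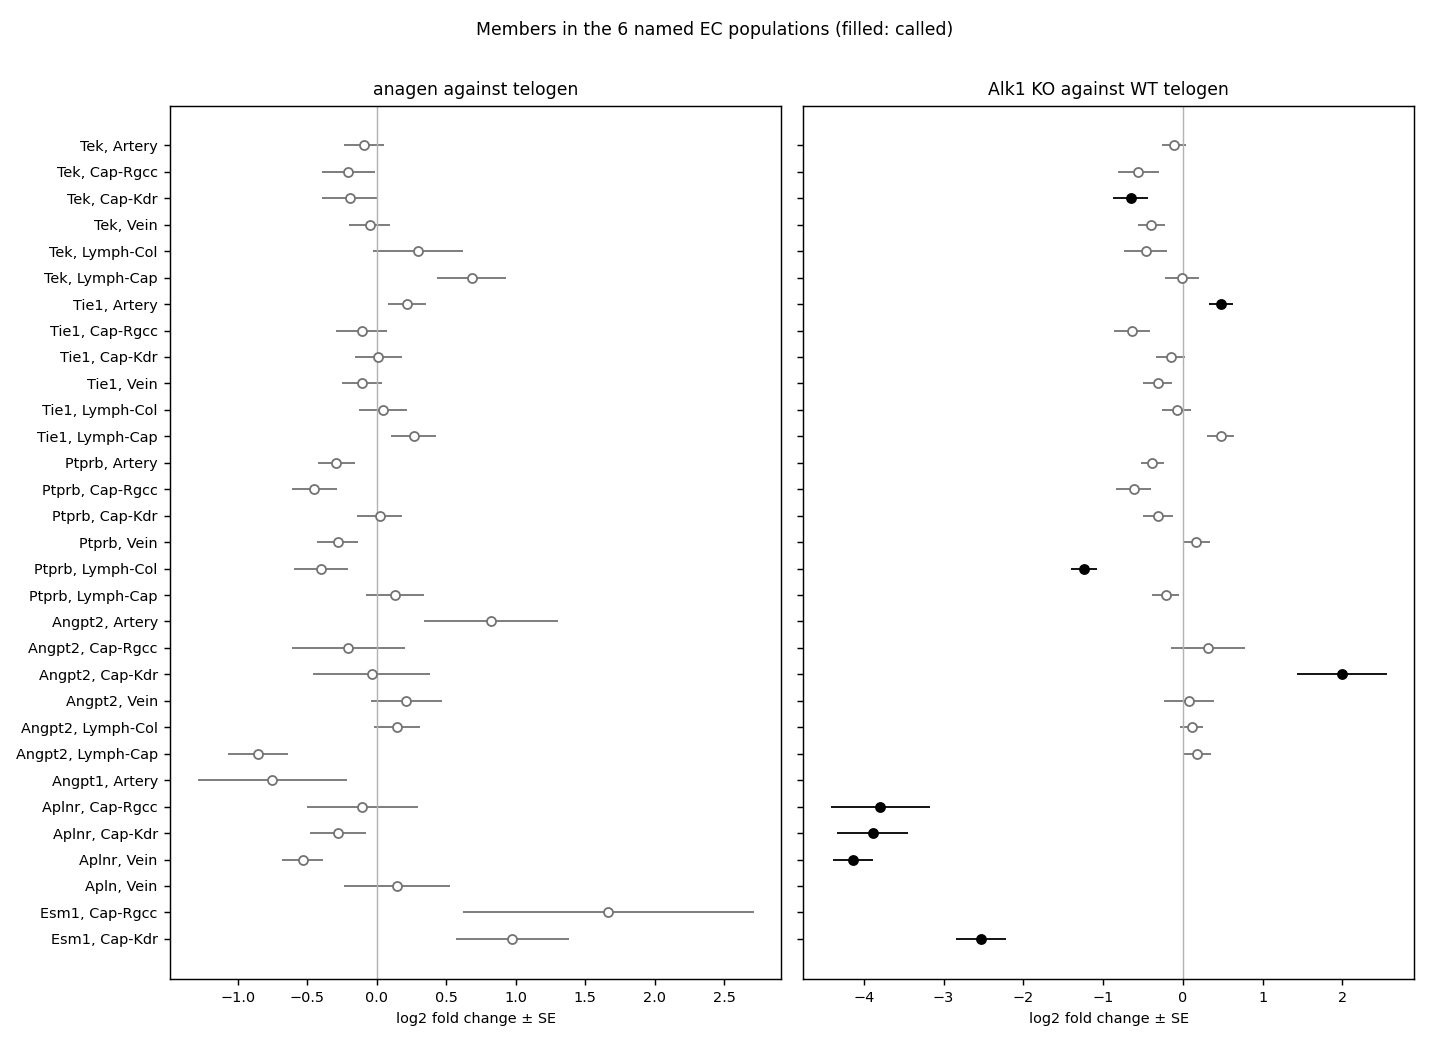
Log2 fold change ± SE of each member tested in the 6 named EC populations, anagen against telogen on the left and Alk1 KO against WT telogen on the right, with filled points for called values. No point is filled on the left, and 8 are on the right, among them Aplnr in Cap-Rgcc, Cap-Kdr and Vein at -3.79 to -4.14 and Ptprb in Lymph-Col at -1.24; the 2 panels share the telogen libraries.

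Pericyte-like cells, which held 29.6% to 72.4% of the Angpt1 UMIs in the 6 libraries, gave 3 called members of 7 tested beside 5.91% of 8151 genes. They were Tek (52.2 and 41.7 to 12.4 and 4.64 CPM, log2 -2.42 ± 0.56, edgeR adjusted p 0.0466), Tie1 (69.1 and 69.5 to 15.5 and 27.8, -1.84 ± 0.40, 0.0394) and Aplnr (40.7 and 27.1 to 0 and 4.64, -4.16 ± 0.95, 0.0443), all of them higher in the sum of blood ECs than here. EC markers were lower beside them, as the 10 together were at 4030 and 3164 CPM in WT telogen and 755 and 2287 in the KO, none of them at 0, and Cdh5 at 523 and 393 against 15.5 and 172. Their part in the result was not tested, DESeq2 made none of the 3 calls, and 37 cells stood behind 1 KO library. Leaving out 1 library ended the calls of Tek (without WT telogen replicate 1, adjusted p 0.441, WT telogen replicate 2, 0.101, or KO replicate 2, 0.0562), Tie1 (without WT telogen replicate 1, 0.132, WT telogen replicate 2, 0.0882, or KO replicate 1, 0.0540) and Aplnr (without WT telogen replicate 2, 0.174, or KO replicate 1, 0.0521), and without WT telogen replicate 1 Aplnr did not pass the filter on low counts. All 3 calls were also lost with the replicate number as a block (adjusted p 0.0579 to 0.0894) and with all 6 libraries in one fit (0.0585 to 0.0643). Tie1 lost its call with stricter cells (0.0508) and with thinned sums (0.0561), where Aplnr in both and Tek in the latter did not pass the filter. Angpt1 itself was at 30.7 and 34.0 CPM in WT telogen and 65.2 and 51.0 in the KO (log2 0.76 ± 0.35, edgeR adjusted p 0.207). In perineurial-like cells 0 of 2 members were called, with 2 at an unadjusted p under 0.05 and none by DESeq2, beside 21.3% of genes. There Tek and Ptprb had 0 UMIs in both KO libraries, where 3 counts would be 9.46 and 16.4 CPM and the WT telogen levels were 5.97 to 9.83. Ptprb was called there in the fit with all 6 libraries and in the one without the filter on low counts. In fibroblast-like cells 0 of 2 were called, with 0 at an unadjusted p under 0.05 and 0 by DESeq2, beside 39.1% of genes.

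To set cells of unequal depth side by side, every cell was thinned to 1500 UMIs and the share with at least 1 UMI of a gene was taken, with 95% exact binomial intervals that cover counting error only and do not count mice. Aplnr was found in 66 of 243 Cap-Kdr cells in telogen (27.2%, 21.7 to 33.2), 226 of 958 in anagen (23.6%, 20.9 to 26.4) and 3 of 234 in the KO (1.28%, 0.265 to 3.70). In Vein the shares were 22.3%, 15.9% and 3.64% (1.68 to 6.80). Without thinning the Aplnr shares in Cap-Kdr were 48.7%, 41.6% and 2.19%. Immune-like cells, which should lack the gene, had 0.196%, 1.23% and 0 of 158 cells, which allows up to 1.90%, at median depths of 12996, 11454 and 8034 UMIs against 4731, 4541.5 and 3264.5 in Cap-Kdr. The interval of the KO share of Aplnr in Cap-Kdr holds this limit, so by this share a difference from immune-like cells was not detectable at this depth. The summed level of Aplnr in the KO was 3.8 and 38.2 CPM in Cap-Kdr and 0 and 1.62 CPM in immune-like cells. By library the Aplnr shares in Cap-Kdr were 20.4% and 33.1% in telogen, 24.4% and 21.9% in anagen and 0.775% and 1.90% in the KO. Esm1 was found in 8.23% of Cap-Kdr cells in telogen, 16.6% in anagen and 3.85% (1.77 to 7.18) in the KO (17.2%, 25.3% and 4.69% without thinning). By library the Esm1 shares were 8.85% and 7.69% in telogen, 21.2% and 6.86% in anagen and 2.33% and 5.71% in the KO, so the pooled anagen share lies above telogen through anagen replicate 1. Among immune-like cells it was found in 1 of 2547, 0 of 324 and 0 of 158, and these zeros allow up to 0.926% and 1.90%.

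Angpt2 was found in 27.4% (24.2 to 30.7), 25.1% and 30.3% of Lymph-Col cells and in 2.47%, 1.98% and 6.41% (3.63 to 10.4) of Cap-Kdr cells in telogen, anagen and KO, and in at most 0.309% of immune-like cells. The KO share in Cap-Kdr was 3.10% in replicate 1 and 10.5% in replicate 2. Without thinning the Lymph-Col shares of Angpt2 were 50.2%, 48.6% and 53.1% and the Cap-Kdr shares 6.74%, 6.82% and 12.5%. Ptprb was found in 64.3%, 54.6% and 50.1% of blood ECs and in 18.8%, 12.6% and 8.16% of Lymph-Col cells, beside at most 0.926% of immune-like cells. Its Lymph-Col shares without thinning were 43.2%, 31.7% and 20.5%. In the Prnd cluster Apln was found in 6 of 22 cells in telogen, 23 of 138 in anagen and 3 of 52 in the KO. The telogen libraries held 7 and 15 cells of this cluster, and no test was made on it.

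**Figure D4:**
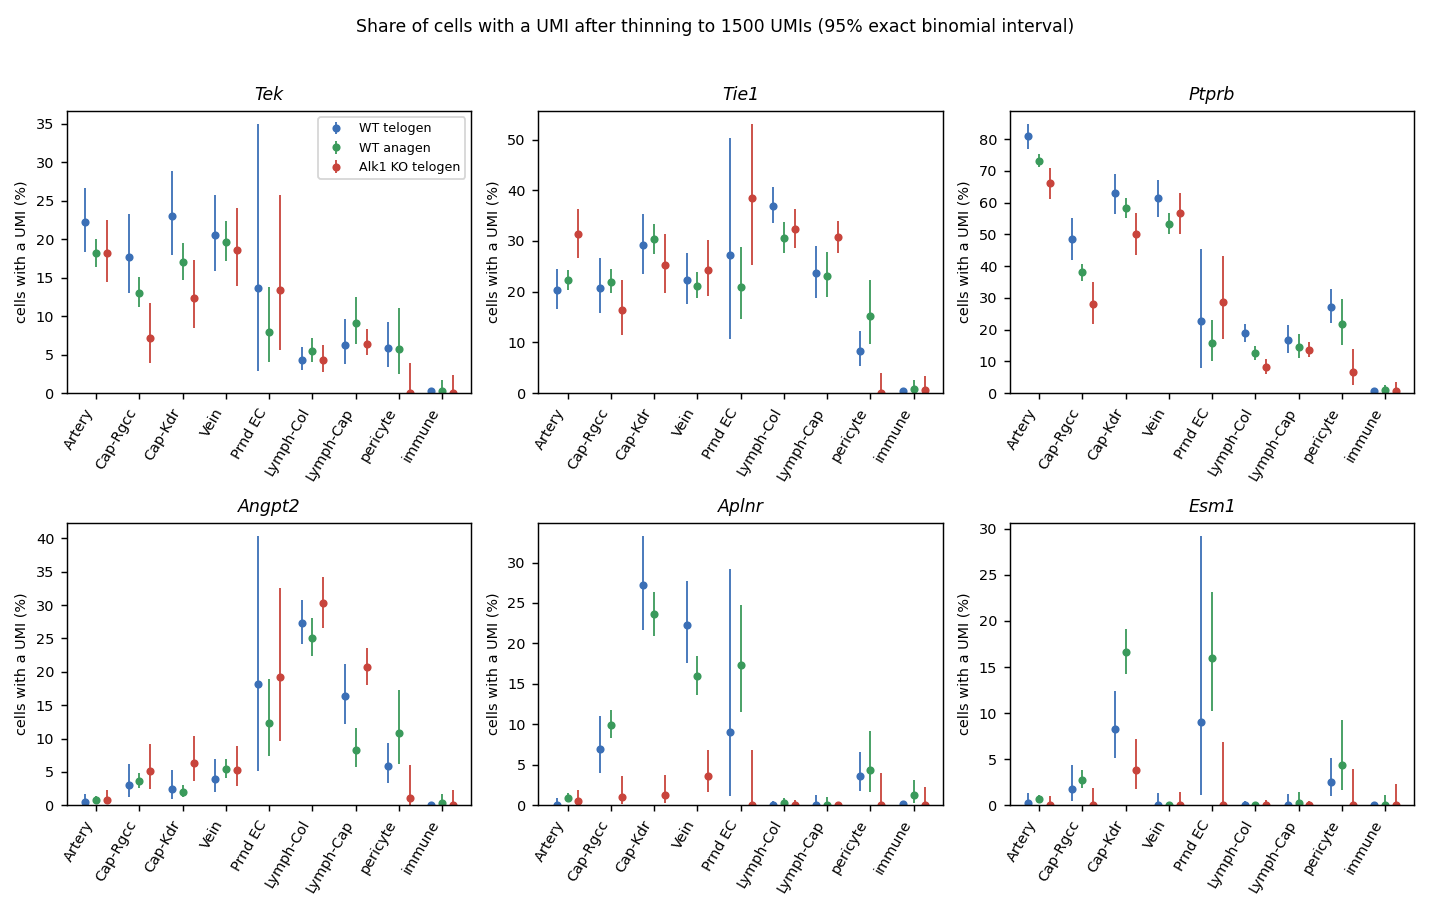
Share of cells with a UMI (%) for 6 genes after thinning to 1500 UMIs, by population and group, with 95% exact binomial intervals. Aplnr in Cap-Kdr stands at 27.2% in telogen and 1.28% in the KO, and the immune-like cells at the right give the background.

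The other genes of these pathways came from 4 lists of 65 genes that were chosen with earlier results of these data known. Between stages edgeR called none of them in blood or lymphatic ECs, where an unadjusted p under 0.05 was found for 4 of 26 Tie pathway partners in blood ECs and, in lymphatic ECs, for 4 of 27 of them, 2 of 12 apelin pathway partners and 3 of 9 tip cell genes. DESeq2 called 0 of them in blood ECs and 1 tip cell gene in lymphatic ECs. In KO blood ECs 3 of 26 Tie pathway partners tested rose and 3 fell (median log2 0.08, against 0.02 for all genes). Foxo3, a transcription factor that Akt keeps out of the nucleus, rose (10.5 and 12.9 to 32.4 and 31.9 CPM, log2 1.41, edgeR adjusted p 0.000739), as did Tnip2 (0.96) and Pik3ca (0.85), the PI3K catalytic subunit. The rises of Foxo3 and Pik3ca were not particular to ECs. Foxo3 was also called higher in fibroblast-like (2.30), pericyte-like (2.24) and perineurial-like cells (1.71), and Pik3ca in fibroblast-like cells (1.36). Itgav, the αv integrin, fell (27.2 and 30.4 to 8.09 and 10.5 CPM, log2 -1.68), as did Mapk3 (-0.60). Mapk3 was also called lower in perineurial-like cells (-1.26).

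Of 12 apelin pathway partners 1 rose, Gna13 (log2 0.45), and 3 fell, Mef2c (-0.55), Gnai2 (-0.46) and Gna11 (-0.44), with a median of -0.12. Gnai2, Gna11 and Gna13 encode G protein alpha subunits and Mef2c a transcription factor. Gnai2 was also called lower in perineurial-like (-0.75) and fibroblast-like cells (-0.76). Among the named populations Angptl4 was called higher in Cap-Kdr (44.3 and 75.2 to 243 and 214 CPM, log2 1.73) and lower in Vein (-1.14) and Cap-Rgcc (-1.21). In the summed blood ECs edgeR called none of 2 angiopoietin-like proteins, with 1 at an unadjusted p under 0.05 and 0 called by DESeq2. Of 11 tip cell genes 5 rose and 1 fell (median 0.61), led by the VEGF family member Pgf (36.7 and 59.9 to 364 and 531 CPM, log2 3.16), the chemokine receptor Cxcr4 (10.5 and 7.59 to 56.6 and 111 CPM, 3.13) and adrenomedullin, Adm (1.69). Kcne3 fell (-1.61) and Trp53i11 rose (0.83). Pgf was also called higher in pericyte-like cells (2.45) and Cxcr4 in perineurial-like cells (3.45). Esm1, also known as a tip cell gene, fell in the same sums.

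In KO lymphatic ECs 3 Tie pathway partners rose and 7 of 28 fell (median log2 -0.18, against 0.03 for all genes), among them the adaptor Grb14 (11.5 and 7.82 to 0.819 and 0.932 CPM, log2 -3.47), Itgav (-0.87) and the ETS factor Elf1 (-0.69) lower, and Foxo3 (0.77) and Tnip2 (0.75) higher. Of 12 apelin pathway partners the endothelin-converting enzyme Ece1 (359 and 374 to 754 and 704 CPM, 0.93) and the receptor kinase Grk2 (0.92) rose and Gna13 fell (-0.62). Angptl2 fell (37.3 and 21.9 to 2.73 and 1.86 CPM, -3.75), 1 of 2 angiopoietin-like proteins tested. Angptl2 was also called lower in perineurial-like (-4.11) and fibroblast-like cells (-1.39). In the lymphatic EC sums the 9 fibroblast markers together were at 69.9 and 92.7 CPM in WT telogen and 10.1 and 13.04 in the KO. The 12 perineurial markers there were at 520 and 518 against 182 and 198. The part of these lists in the fall of Angptl2 was not tested. Of 9 tip cell genes 1 rose, the urokinase receptor Plaur (0.48), and 3 fell, Pgf (102 and 49.7 to 15.01 and 31.4 CPM, -1.76), Fscn1 (-1.17) and Unc5b (-0.65). The counts in the blood and lymphatic EC sums stand beside the 33.3% and 24.7% of all genes called in the respective fits.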

How the data were processed

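Droplet 3′ gene counts (Chromium v3) were deposited by the authors as 1 matrix of UMI counts per library, made, per the submitters' processing notes, with Cell Ranger 6.0.1 on mm10, before any normalization. Seurat 4.0 was used by the authors for their own clustering, which was not used here. There were 2 libraries, from 2 mice, in each of 3 groups, with 10615358 to 43317677 UMIs each.

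Cells with 200 to 5000 genes and under 10% mitochondrial UMIs were kept. They were normalized to 10000 UMIs and log-transformed. The 9 genes described, the 65 of the pathway lists, Acvrl1, mitochondrial genes, Xist, Tsix and Y-linked genes were left out of clustering. From the rest, 3000 variable genes, 30 principal components, Harmony (theta 2, sigma 0.1) between libraries, 20 neighbours and Leiden clustering at 0.6 gave the clusters (scanpy 1.11.5, leidenalg 0.10.2). A cluster was named where at least 3 markers of a type were 2-fold higher and found in 25% of cells, and doublets were removed only in an alternative. Counts were summed per library and population with at least 5 cells and tested with edgeR 4.0.16 (TMM, filterByExpr, quasi-likelihood F test, Benjamini-Hochberg, R 4.3.3) between the 2 groups compared. DESeq2 1.42.0 was an alternative. Called means adjusted p under 0.05 and fold over 1.3. The response of lymphatic against blood ECs was an interaction term with library as a block and no fold limit.

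Shares of cells were taken after thinning to 1500 UMIs, with Clopper-Pearson 95% intervals that cover counting error only. Floors are 3 counts. The fits were tested on simulated data. The genes, lists, tests and named-gene rule (all 9 genes, the 3 most alike, and at most 5 called genes of a pathway list by size of change) were chosen with earlier results of these data known.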

Additional observations from a re-analysis of the deposited data

Results flagged for a closer look

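The KO response of Angpt2 differed between lymphatic and blood ECs, with a log2 difference (lymphatic minus blood) of -0.83 ± 0.28 in the interaction term (edgeR adjusted p 0.0465). Angpt2 was at 221 and 217 CPM in WT telogen and 187 and 219 in the KO in lymphatic ECs, where the groups overlap, and at 14.2 and 33.1 against 29.7 and 45.4 in blood ECs, where they overlap too. Within Lymph-Col the KO libraries were at 268 and 309 CPM, beside 220 to 302 over the 4 WT libraries. Within Lymph-Cap they were at 138 and 167 CPM, beside 58.1 to 147 over the same WT libraries. The low end of that range is from anagen, and in Lymph-Cap the KO and WT telogen libraries overlap. Lymph-Cap had 182 and 164 cells in WT telogen and 402 and 508 in the KO. The cause of the difference was not tested. The call was lost with stricter cell limits (-0.77, adjusted p 0.0670), with clusters made without correction between libraries (-0.77, 0.0647), and without WT telogen replicate 1 (-0.29, 0.529), KO replicate 1 (-0.97, 0.119) or KO replicate 2 (-0.63, 0.296). With 2 libraries per group no sample could be tested for standing apart from its own group.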

How the results depend on the processing

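Between stages, where no member was called in ECs, leaving out 1 library in turn gave 0 to 2 calls in blood ECs, 0 to 1 in lymphatic ECs and 0 to 4 over the 6 named populations, and testing without the filter on low counts gave 1 in lymphatic ECs and 4 over the populations. For KO blood ECs (3 called), no filter gave 6. For KO lymphatic ECs (1 called), leaving out 1 library gave 0 to 1. For the KO response of lymphatic against blood ECs (1 called), no filter and removed doublets gave 2 each, stricter cells and clusters without correction 0 each, and leaving out 1 library 0 to 1.

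The replicate numbers did not pair the samples, since deviations of same-numbered libraries correlated at -0.072, -0.015, -0.036 and 0.023 over genes. With the replicate number as a block, 5 members were called in KO blood ECs and 1 over the named populations between stages, and the blood Apln change between stages was -0.12 and the lymphatic Tie1 change in the KO -0.0053. Genes called in lymphatic ECs between stages went from 184 to 516.

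Signs turned for small, uncalled log2 changes. Between stages in blood ECs these were Apln from the 4 named populations alone, an alternative chosen after seeing the data (-0.23), and Tie1 with stricter cells (-0.0073) or equal cells of each population (-0.011). The lymphatic minus blood difference of Ptprb between stages was -0.047 with doublets removed. In KO lymphatic ECs Tie1 was -0.0079 with DESeq2 and -0.00031 with doublets removed, and with equal cells Tek was -0.013 and Angpt2 0.056. Leaving out 1 library gave ranges that cross 0 between stages in blood ECs for Tie1 (-0.034 to 0.081), Angpt2 (-0.45 to 0.75), Apln (-1.32 to 0.88) and Esm1 (-1.03 to 2.15), and in lymphatic ECs for Tie1 (-0.11 to 0.24), Angpt2 (-0.14 to 0.029) and Ptprb (-0.47 to 0.0077). The same held for the differences between EC types in Angpt2 (-0.82 to 0.43), Tie1 (-0.087 to 0.15) and Ptprb (-0.044 to 0.30) between stages and Tie1 in the KO (-0.092 to 0.22), and for Tie1 in KO lymphatic ECs (-0.23 to 0.21).

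Over all genes, those called in blood ECs between stages were 0, 208 with DESeq2, 10 with thinned sums, 32 with equal cells, and 600 and 509 without anagen replicate 1 and 2. In lymphatic ECs 904 were called without the filter, 84 with stricter cells and 93 with equal cells. In the KO, DESeq2 called 2258 genes in blood ECs (3751 by edgeR) and 1594 in lymphatic ECs (2712 by edgeR). Tek in Vein of WT mice was at 122 CPM with stricter cells (146 otherwise). At 3000 UMIs and without thinning, the telogen shares were 42.2% and 48.7% for Aplnr in Cap-Kdr, 13.5% and 17.2% for Esm1 in Cap-Kdr, and 42.3% and 50.2% for Angpt2 in Lymph-Col, and the KO shares in Cap-Kdr were 13.5% and 12.5% for Angpt2. The KO share of Aplnr in Cap-Kdr was 3.76% at 3000 UMIs. The cause of these changes was not tested. Apart from leaving out libraries, single genes gave the same direction and side of the threshold in 377 values, a call lost in 27, gained in 6 and a turned sign in 10. Equal cell numbers were set for the blood and lymphatic sums alone, and clusters made without correction gave no count over the 6 named populations in the KO.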
